A study of Saccharomyces cerevisiae with 17 samples.

Results

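A set of 10 late ergosterol synthesis genes of budding yeast was followed by RNA-seq in a brr6-1 mutant and in wild type, each in galactose and in glucose. The members were taken by name from the genes whose enzymes carry squalene to ergosterol. They are ERG1, ERG7, ERG11, ERG24, ERG25, ERG26, ERG27, ERG6, ERG3 and ERG5. The set is not the whole late pathway, since ERG2 and ERG4 also belong to it and are read below with other late genes. The members are 10 of 6572 features counted, and all 10 were among the 6297 that passed the filter on low counts. The rule that chose them uses gene names and no measured value, though it was written with earlier results of these data known.

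Ergosterol is the main sterol of fungal membranes and takes the place that cholesterol has in animals. Erg1 oxidises squalene, Erg7 closes the rings to lanosterol, Erg11 and Erg24 remove one methyl group and repair the ring, and Erg25, Erg26 and Erg27 remove the remaining methyl groups in repeated rounds. Erg6, Erg3 and Erg5 then shape the side chain and the ring system. Several of these steps use molecular oxygen and heme. The transcription factors Upc2 and Ecm22 are known to activate many ERG genes when sterol is low. Brr6 is an essential membrane protein of the nuclear envelope that has been linked to membrane lipid homeostasis.

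The mutant strain (yDBK168) has the allele written brr6-1:LEU2:HIS3, in which 1 arginine of a putative zinc finger is replaced by lysine. Wild type was YPH399 (WT), a MATα strain with trp1, leu2, ura3, ade2 and lys2 alleles. Galactose cultures grew on 2% raffinose with 0.04% sucrose and then had 2% galactose for 2 h, and glucose cultures had 2% glucose throughout. All grew at 30 °C in rich medium to mid-log phase. All 4 groups have replicates A and B from separate biological samples, so every test rests on 2 libraries per group. The labels do not say that mutant cultures come from more than 1 isolate of the strain.

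Libraries held between 15059271 and 21637381 reads in genes, and libraries of 1 group correlated at 0.988 to 0.995 (Pearson r of log2 CPM across genes). BRR6 itself stood at 98.5 and 103 CPM, the count scaled to a common library size, in brr6-1 and at 28.0 and 29.5 CPM in WT in glucose, and at 169 and 216 CPM in brr6-1 and 19.1 and 24.4 CPM in WT in galactose. The point mutation does not remove the transcript, so this level checks no loss of function. The marker HIS3 had 18.6 and 43.3 CPM in brr6-1 in glucose, and neither WT glucose library had a HIS3 read. In galactose HIS3 had 15.2 and 15.0 CPM in brr6-1, and the WT libraries had 6 and 3 HIS3 counts. The marker LEU2 had reads in WT too, at 370 and 338 CPM in WT glucose and 1409 and 2003 CPM in brr6-1 glucose. In galactose LEU2 had 94.3 and 113 CPM in WT and 563 and 642 CPM in brr6-1. GAL1 averaged 8591 ± 1329 CPM in brr6-1 galactose and 51.1 ± 13.5 CPM in brr6-1 glucose, and 15268 ± 2707 CPM in WT galactose and 51.8 ± 24.6 CPM in WT glucose (SD, n = 2 each). Alignments that were not unique made up 63.3 and 65.3% of HTSeq lines in brr6-1 glucose and 53.5 to 57.4% in the other 6 libraries. Reads outside genes, as a share of reads in and outside genes, were 37.5 and 36.2% in brr6-1 galactose and 37.3 and 26.7% in WT galactose, where replicate B stood apart. They were 28.5 and 29.2% in brr6-1 glucose and 23.4 and 24.1% in WT glucose, so that the strains did not overlap in glucose.

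The members lie at 10 separate places on 5 chromosomes of the R64 genome. Chromosome VII carries ERG26 (YGL001C, 495453 to 496502), ERG25 (YGR060W, 610564 to 611493) and ERG1 (YGR175C, 846933 to 848423). Chromosome VIII carries ERG11 (YHR007C, 120091 to 121683) and ERG7 (YHR072W, 239098 to 241293). On chromosome XII lie ERG3 (YLR056W, 253861 to 254958) and ERG27 (YLR100W, 341810 to 342853), and on chromosome XIII lie ERG6 (YML008C, 251839 to 252990) and ERG5 (YMR015C, 300869 to 302485). ERG24 (YNL280C) spans 109095 to 110411 on chromosome XIV. No member overlaps another gene of the R64 gene table, the closest neighbour being APC9 at 117 bp from ERG27. Overlap with the 674 features that the table does not hold was not analysed here. The lowest count of a member in any library was 787 (ERG5) and the highest 31339 (ERG1).

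Per kb of coding length, ERG1 was the most abundant member in glucose in both strains, at 762 ± 114 CPM per kb in brr6-1 and 1165 ± 54.3 CPM per kb in WT (SD, n = 2 each). ERG5, which encodes a cytochrome P450 of the side chain, was the least abundant member in all 4 groups. It averaged 65.0 ± 6.93 CPM per kb in brr6-1 galactose and 77.6 ± 1.81 in WT galactose, and 38.4 ± 9.00 in brr6-1 glucose and 41.6 ± 0.177 in WT glucose. Brr6-1 and WT had the members in the same order in glucose, from ERG1 through ERG27, ERG6, ERG3, ERG11, ERG24, ERG26, ERG7 and ERG25 to ERG5. In brr6-1 glucose the libraries of ERG27 overlapped those of ERG6, those of ERG6 overlapped ERG3, those of ERG24 overlapped ERG26 and those of ERG26 overlapped ERG7. In WT glucose the neighbours ERG6 and ERG3 overlapped and no others did.

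In galactose the top of the order was different. ERG6, the sterol methyltransferase, led in brr6-1 at 555 ± 115 CPM per kb and overlapped ERG1 at 494 ± 56.3, which overlapped ERG27 at 449 ± 28.3. ERG3, a sterol desaturase, led in WT at 872 ± 217 CPM per kb and overlapped ERG6 at 838 ± 228, which overlapped ERG1 at 815 ± 133. The highest member stood 8.53-fold over ERG5 in brr6-1 galactose and 11.2-fold in WT galactose, and 19.9-fold in brr6-1 glucose and 28.0-fold in WT glucose.

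**Figure D1:**
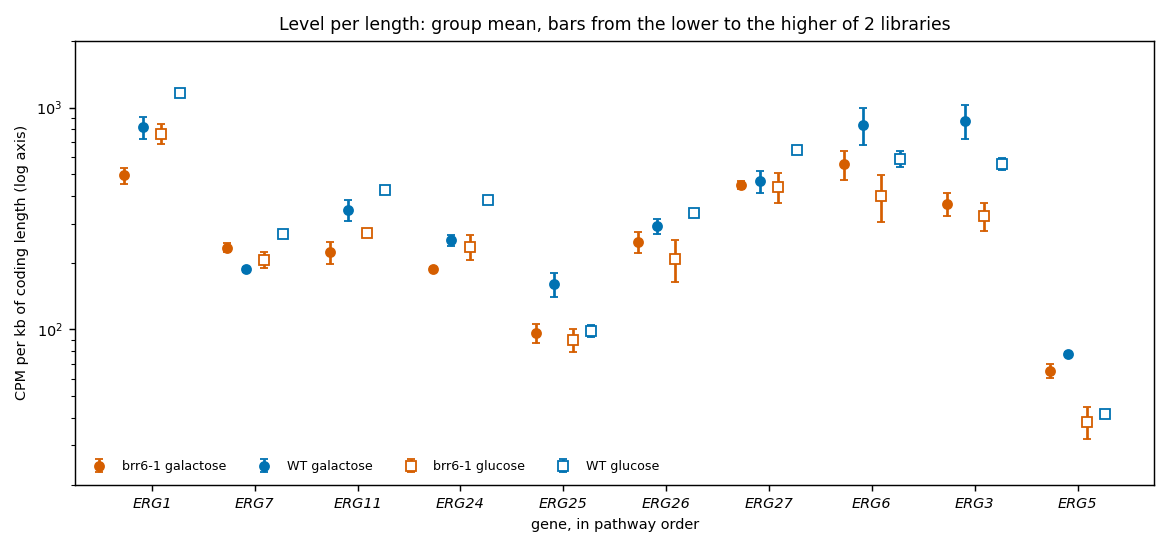
Mean CPM per kb of coding length (log axis) of the 10 genes in pathway order, for brr6-1 galactose, WT galactose, brr6-1 glucose and WT glucose. Bars run from the lower to the higher of 2 libraries; ERG5 is lowest in all 4 groups, and ERG1 is highest in both glucose groups.

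The study's main question for RNA was how expression differs between mutant and WT in each medium. In glucose, 7 of the 10 members were lower in brr6-1 (ERG1, ERG7, ERG11, ERG24, ERG26, ERG27 and ERG3), 0 were higher, and ERG25, ERG6 and ERG5 did not pass. Among all tested genes 19.5% were called lower and 16.7% higher. Among the 859 tested genes averaging over 8 log2 CPM, 39.3% were called lower, and 7 of the 8 members in that range were. The members' median log2 fold change was -0.58, against -0.31 over those abundant genes and 0.03 over all tested genes. A call means a Benjamini-Hochberg adjusted p under 0.05 over all 6297 genes from edgeR's quasi-likelihood test, and errors of fold changes are standard errors. RNA per cell and the number of cells cannot be told apart, since counts are relative to the library.

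At the entry to the late pathway, ERG1 (squalene epoxidase) had 1017 and 1256 CPM in brr6-1 glucose and 1679 and 1794 CPM in WT glucose. ERG1 was lower in both mutant libraries than in either WT library, with a log2 fold change of -0.61 ± 0.18 (adjusted p = 0.0228). ERG7 (lanosterol synthase) had 417 and 489.9 CPM in brr6-1 glucose and 599 and 582 CPM in WT glucose. The ERG7 libraries did not overlap, and its change of -0.38 ± 0.13 was the smallest of those that passed (adjusted p = 0.0485).

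Among the demethylation genes, ERG11 (lanosterol demethylase, a cytochrome P450 and the target of azole drugs) had 435 and 433 CPM in brr6-1 glucose and 662 and 692 CPM in WT glucose. Its replicates lay close together and its log2 fold change was -0.64 ± 0.16 (adjusted p = 0.0125). ERG24, the sterol reductase that acts next, had 270.3 and 352 CPM in brr6-1 glucose and 520.4 and 485 CPM in WT glucose. ERG24 had the smallest adjusted p of the 10 (log2 fold change -0.69 ± 0.15, adjusted p = 0.00776). ERG26 (a decarboxylating sterol dehydrogenase) had 172 and 266 CPM in brr6-1 glucose and 362 and 341 CPM in WT glucose, a change of -0.68 ± 0.20 (adjusted p = 0.0235). ERG27 (the keto sterol reductase) had 388 and 532 CPM in brr6-1 glucose and 671 and 677 CPM in WT glucose, a change of -0.55 ± 0.17 (adjusted p = 0.0324). Both mutant libraries of ERG26 and of ERG27 were below both WT libraries, but replicate A was well below replicate B. ERG25 (the sterol methyl oxidase) had 73.6 and 93.8 CPM in brr6-1 glucose and 86.2 and 97.6 CPM in WT glucose. These overlap, and ERG25 did not pass (-0.13 ± 0.17, adjusted p = 0.548).

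Of the terminal genes, ERG3 had 305 and 408 CPM in brr6-1 glucose and 575 and 649 CPM in WT glucose, with the largest change of the 10 in glucose (-0.78 ± 0.21, adjusted p = 0.018). ERG6 had 351 and 574 CPM in brr6-1 glucose and 733 and 620.0 CPM in WT glucose. Its mutant libraries were both below WT, but they differed from each other by 0.71 on the log2 scale, and ERG6 did not pass (-0.55 ± 0.26, adjusted p = 0.117). ERG5 had 51.8 and 72.4 CPM in brr6-1 glucose and 67.5 and 67.1 CPM in WT glucose. The ERG5 libraries overlapped (-0.11 ± 0.16, adjusted p = 0.582).

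**Figure D2:**
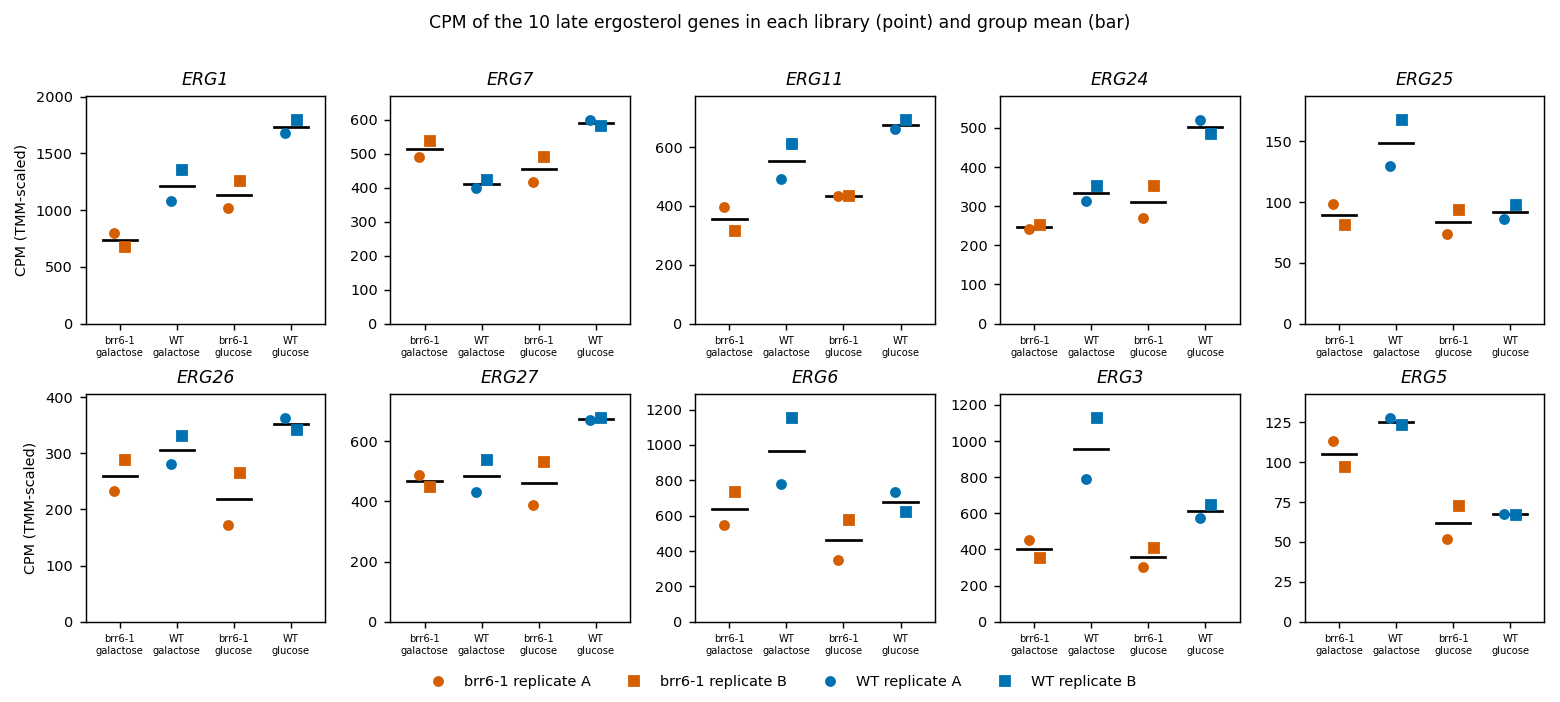
CPM of each of the 10 genes in every library (circle, replicate A; square, replicate B; bar, group mean), with brr6-1 in orange and WT in blue, in galactose on the left of each panel and in glucose on the right. ERG3 in galactose has 453 and 356 CPM in brr6-1 and 789 and 1126 CPM in WT, and ERG7 is the gene whose mutant libraries lie above WT in galactose and below WT in glucose.

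The number of glucose calls changed with single libraries. Without replicate A of WT glucose 0 members passed, without replicate B of WT glucose or without replicate A of brr6-1 glucose 1 did (ERG24 each time), and without replicate B of brr6-1 glucose 8 did. The members' median fold change was not smaller without a WT glucose library, at -0.65 without replicate A and -0.64 without replicate B, while the calls over all genes fell to 224 higher and 412 lower, and to 200 higher and 316 lower, against 1050 higher and 1230 lower with all libraries. It was -0.38 without replicate A of brr6-1 glucose and -0.79 without its replicate B. Replicate A of brr6-1 glucose was below replicate B for 9 of the 10 members, by a median of 0.40 on the log2 scale, while the median over all tested genes was 0.02 in the other direction. In WT glucose 5 members were higher in replicate A and 5 in replicate B. The members' share of all gene counts, which is their level on the scale of library totals, was 0.351 and 0.467% in brr6-1 glucose and 0.495 and 0.485% in WT glucose.

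In galactose, 4 of the 10 members were lower in brr6-1 (ERG1, ERG11, ERG25 and ERG3), 0 were higher and 6 did not pass. Among all tested genes 14.3% were called lower and 8.29% higher. Of the abundant genes 22.1% were called lower, as were 3 of the 8 members in that range. The members' median log2 fold change was -0.52, against -0.11 over the abundant genes and 0.01 over all tested genes.

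ERG3 stood furthest from WT. It had 453 and 356 CPM in brr6-1 galactose and 789 and 1126 CPM in WT galactose, a 0.422-fold level (log2 fold change -1.24 ± 0.21, adjusted p = 0.00287). ERG3 in galactose was called under all 14 alternative settings, with log2 fold changes between -1.48 and -0.97. ERG25 had 98.7 and 80.8 CPM in brr6-1 galactose and 130.2 and 168 CPM in WT galactose, with no overlap (-0.73 ± 0.17, adjusted p = 0.0138). ERG1 had 796 and 677 CPM in brr6-1 galactose and 1076 and 1355 CPM in WT galactose. Its change was -0.72 ± 0.18 (adjusted p = 0.0164). ERG11 had 396 and 314 CPM in brr6-1 galactose and 492 and 611 CPM in WT galactose, a change of -0.64 ± 0.16 (adjusted p = 0.0176). For ERG1 and ERG11 both mutant libraries were below both WT libraries, as in glucose.

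The 6 members that did not pass in galactose differed among themselves. ERG24 had 241 and 251 CPM in brr6-1 galactose and 314 and 353 CPM in WT galactose, with no overlap (-0.44 ± 0.15, adjusted p = 0.0578). ERG6 had 545 and 733 CPM in brr6-1 galactose and 780.2 and 1151 CPM in WT galactose (-0.60 ± 0.26, adjusted p = 0.121). Its libraries did not overlap either, but the replicates of each group were far apart. ERG5 had 113 and 97.2 CPM in brr6-1 galactose and 127 and 123 CPM in WT galactose (-0.25 ± 0.16, adjusted p = 0.257). ERG26 had 233 and 288 CPM in brr6-1 galactose and 282 and 331 CPM in WT galactose, which overlap (-0.23 ± 0.20, adjusted p = 0.409). ERG27 had 489 and 447 CPM in brr6-1 galactose and 432 and 538 CPM in WT galactose, so that the mutant libraries lay between those of WT (-0.05 ± 0.17, adjusted p = 0.852). ERG7 was the one member with a positive fold change. It had 489 and 536 CPM in brr6-1 galactose and 399 and 421 CPM in WT galactose, with no overlap, and did not pass (0.32 ± 0.13, adjusted p = 0.108).

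**Figure D3:**
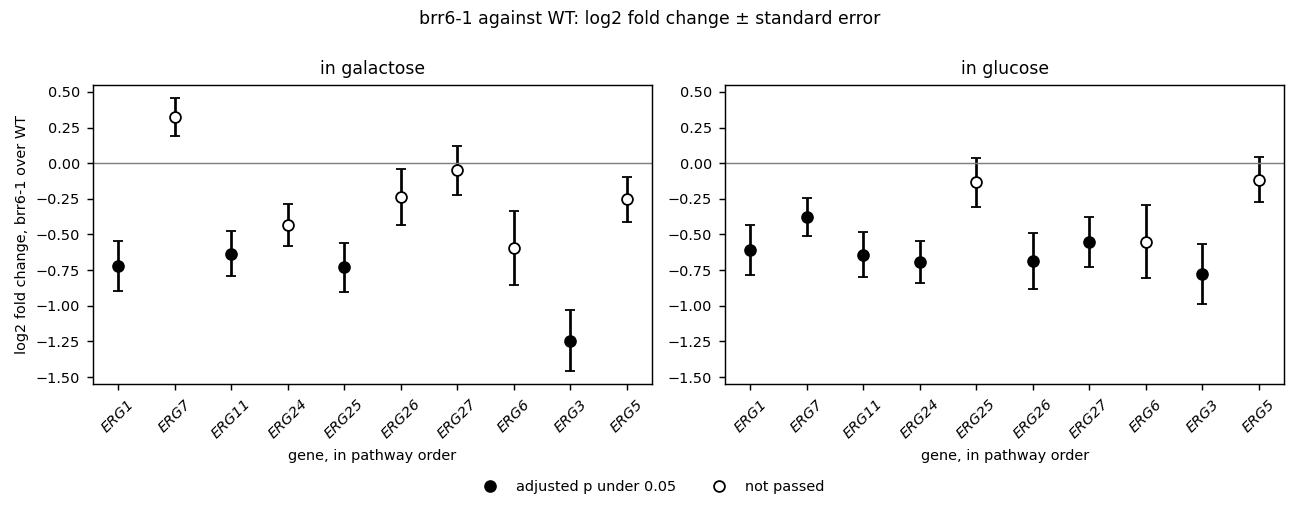
Log2 fold change of brr6-1 over WT ± standard error for the 10 genes in pathway order, in galactose (left) and in glucose (right), with filled points for adjusted p under 0.05. In glucose all 10 points are below 0 and 7 are filled; in galactose 4 are filled and ERG7 lies above 0.

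The number of galactose calls also changed with single libraries, for the members and over all tested genes. The members' median log2 fold change was -0.41 without replicate A of brr6-1 galactose and -0.48 without its replicate B. It was -0.66 without replicate A of WT galactose and -0.33 without its replicate B. Replicate A of WT galactose was below replicate B for 9 of the 10 members, by a median of 0.32 on the log2 scale. In brr6-1 galactose 6 members were higher in replicate A and 4 in replicate B. The members made up 0.461 and 0.443% of gene counts in brr6-1 galactose and 0.504 and 0.597% in WT galactose.

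The 4 members that were lower in galactose encode enzymes that consume molecular oxygen. Of the 5 members of that kind (ERG1, ERG11, ERG25, ERG3 and ERG5), 4 were lower in galactose, with a median log2 fold change of -0.72. Of the other 5 (ERG7, ERG24, ERG26, ERG27 and ERG6), 0 were called lower, with a median of -0.23. In glucose the counts were 3 of 5 and 4 of 5, with medians of -0.61 and -0.55 in the same order. In galactose both brr6-1 libraries of ERG24 (-0.44) and of ERG6 (-0.60) were also below both WT libraries, though neither gene passed. Outside the members, the late genes ERG4 (-0.86 ± 0.16) and ERG2 (-0.85 ± 0.23) were called lower in galactose. They encode a reductase and an isomerase, not enzymes of the oxygen-consuming kind. The grouping by oxygen use was made after the values were seen and was given no test.

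The difference of the brr6-1 effect between galactose and glucose was tested directly. By edgeR's quasi-likelihood test 0 of 10 members passed, while 2 were under 0.05 before adjustment, and 5.59% of all tested genes were called in either direction. DESeq2's Wald test called 1 (ERG7, adjusted p = 0.00938), with 3 under 0.05 before adjustment. Over all 6297 tested genes DESeq2 called 271 higher and 346 lower for that difference. ERG7 had the largest difference at 0.70 ± 0.19 (adjusted p = 0.0587), since its fold change was positive in galactose and negative in glucose. It also passed with genes kept only at 100 counts or more in each of 2 libraries (adjusted p = 0.0448). In that setting 153 of 5285 tested genes were called higher and 264 lower. The ERG7 difference was 0.82 without replicate B of brr6-1 glucose and 0.75 without replicate B of WT galactose. ERG25 had a difference of -0.60 ± 0.24 (adjusted p = 0.156). ERG11 had nearly the same fold change in both media, with a difference of 0.01 ± 0.22 (adjusted p = 0.991), an error wide enough that equal effects are not shown.

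The glucose calls depended on library scaling. With library totals as the only scaling, the median over all tested genes shifted by 0.33 (log2) in glucose and by 0.24 in galactose, and 0 members then passed in glucose, while in galactose ERG3 was lower and ERG7 higher (0.56, adjusted p = 0.0127). Under that scaling 86.5% of all calls in glucose were higher, against 46.1% in the fit above, and 75% in galactose, against 36.7%. Cyclic loess, which evens out trends with abundance, left 1 member lower in glucose (ERG24) and the same count of 4 in galactose. Relative to the median of all tested genes, the members' median was -0.61 in glucose under the fit above, -0.61 under library totals and -0.27 under cyclic loess. In galactose these were -0.53, -0.52 and -0.44. ERG25 and ERG5 in glucose turned positive under library totals (0.19 and 0.21) and under cyclic loess (0.02 and 0.02), and passed under neither, so that the single direction of all 10 in glucose holds under TMM and DESeq2 size factors but not under the other scalings.

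**Figure D4:**
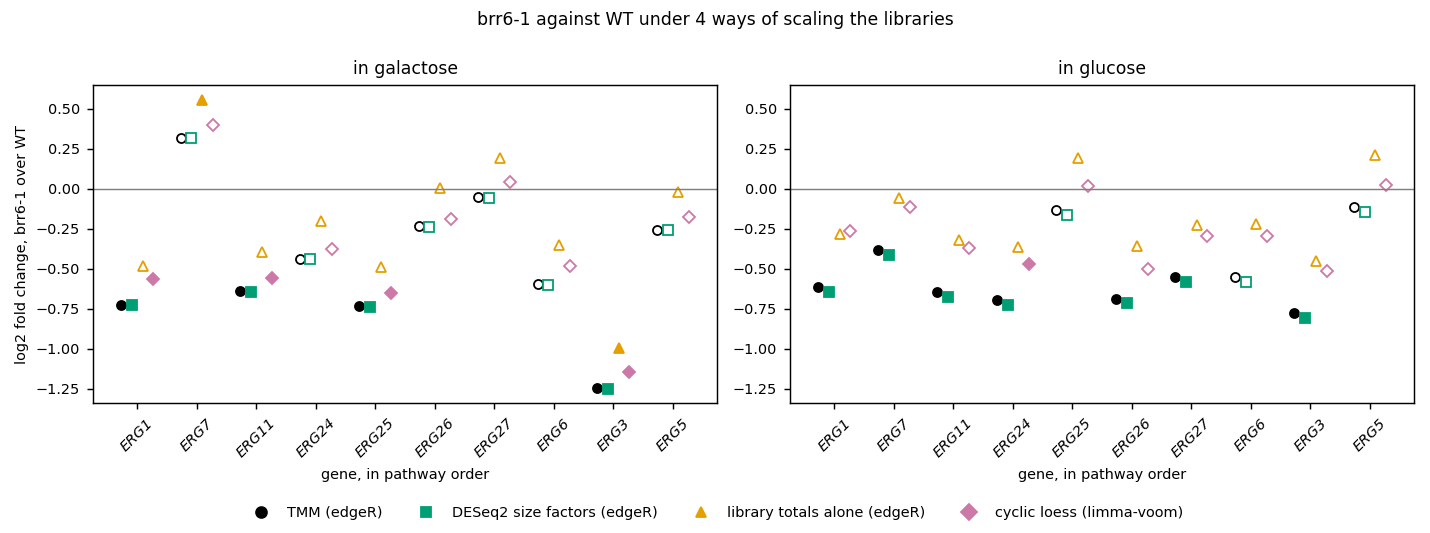
Log2 fold change of brr6-1 over WT for the 10 genes under 4 ways of scaling the libraries, in galactose (left) and in glucose (right); filled symbols have an adjusted p under 0.05. Under library totals alone no symbol is filled in glucose, and in galactose ERG3 is filled under all 4 scalings.

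Galactose was then compared with glucose within each strain. These comparisons use the same libraries as those above, so that their values are not independent of them. In WT, ERG25, ERG3 and ERG5 rose in galactose, ERG1, ERG7, ERG24 and ERG27 fell, and ERG11, ERG26 and ERG6 did not pass. Among all tested genes 24.3% were called higher and 20.5% lower, and 51.8% of the abundant genes were called lower, against 4 of the 8 members in that range. In brr6-1, ERG5 rose and ERG1 fell, and the other 8 did not pass. There 8.75% of all tested genes were called higher and 7.26% lower, and 21.4% of the abundant genes lower, against 1 of the 8 members.

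ERG5 rose in galactose in both strains. From the CPM given above for each library, it was higher in every galactose library than in any glucose library of the same strain, with log2 fold changes of 0.76 ± 0.16 in brr6-1 (adjusted p = 0.00848) and 0.90 ± 0.16 in WT (adjusted p = 0.00146). The ERG5 call in WT held under all 14 alternatives, while that in brr6-1 was lost without replicate A of brr6-1 galactose (adjusted p = 0.0838). ERG1 fell by 0.63 ± 0.18 in brr6-1 (adjusted p = 0.0359) and by 0.51 ± 0.18 in WT (adjusted p = 0.0357). Each of these ERG1 calls held under 9 of the 14 alternatives. In brr6-1 ERG1 was at -0.42 under library totals (adjusted p = 0.0918) and at -0.25 under cyclic loess (adjusted p = 0.401). ERG1 in WT was at 0.05 under cyclic loess (adjusted p = 0.841), so its direction turned there.

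In WT, ERG25 rose by 0.70 ± 0.17 (adjusted p = 0.00813), where the brr6-1 value was 0.10 ± 0.17 (adjusted p = 0.753). ERG3 rose by 0.65 ± 0.21 in WT (adjusted p = 0.029), where the brr6-1 value was 0.18 ± 0.21 (adjusted p = 0.622). ERG7 fell by 0.53 ± 0.13 in WT (adjusted p = 0.00976), where the brr6-1 value was 0.18 ± 0.13 (adjusted p = 0.439). ERG24 fell by 0.59 ± 0.15 in WT (adjusted p = 0.0089), where the brr6-1 value was -0.34 ± 0.15 (adjusted p = 0.163). ERG27 fell by 0.47 ± 0.17 in WT (adjusted p = 0.047), and its brr6-1 value was 0.03 ± 0.17 (adjusted p = 0.942). That these changes passed in WT and not in brr6-1 does not show that the strains differ, since the test of the difference is the one above, in which no member passed. In WT the terminal members ERG6, ERG3 and ERG5 were all positive, with a median of 0.65, though ERG6 did not pass (adjusted p = 0.13). The first 2 genes, ERG1 and ERG7, were both negative, with a median of -0.52. Among late genes outside the members, ERG4 was at -0.37 ± 0.15 (adjusted p = 0.0741) and ERG2 at 0.05 ± 0.23 (adjusted p = 0.883). Under cyclic loess ERG1 was at 0.05 and ERG7 at -0.10. The contrast between first and terminal genes was given no test.

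**Figure D5:**
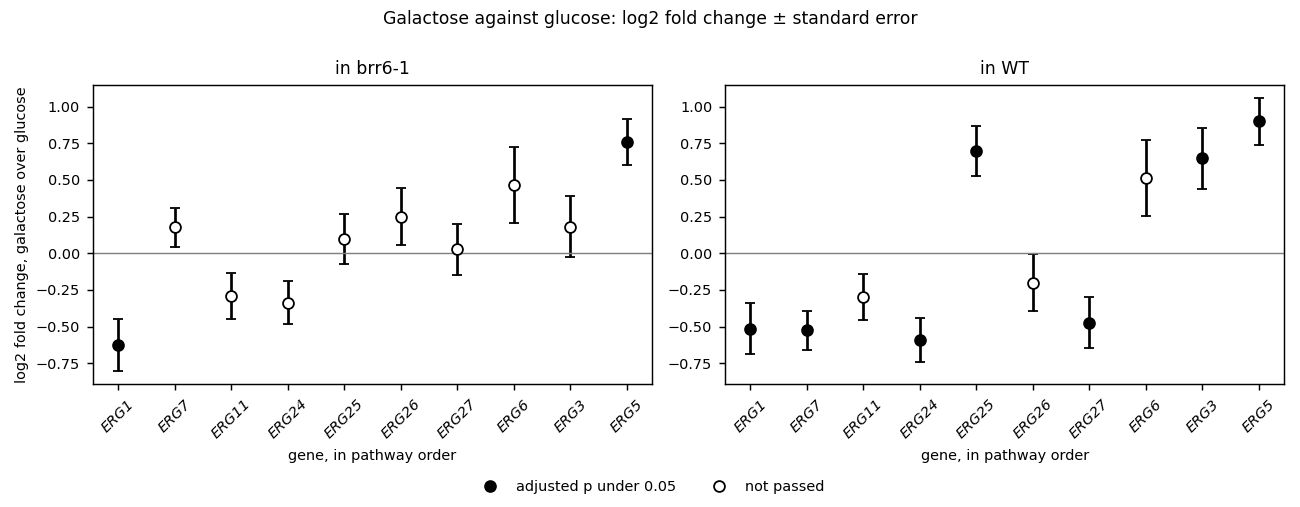
Log2 fold change of galactose over glucose ± standard error for the 10 genes in pathway order, in brr6-1 (left) and in WT (right), with filled points for adjusted p under 0.05. In WT 7 points are filled, 3 of them above 0 (ERG25, ERG3 and ERG5); in brr6-1 ERG1 and ERG5 are filled.

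The falls in WT were not called under every scaling. Under library totals, and also under cyclic loess, 4 members were higher in galactose in WT (ERG25, ERG6, ERG3 and ERG5) and 0 lower, and the members' median, -0.25 in the fit above, was 0.04 and 0.11. Library totals moved the median of all tested genes by 0.29, and relative to that median the members' median was -0.35 in the fit above, -0.36 under library totals and 0.12 under cyclic loess. Under library totals 79.7% of all calls in WT were higher, against 54.3% in the fit above, and 80.9% in brr6-1, against 54.7%. For WT, 1 member passed without replicate A of WT glucose, 3 without replicate B of WT glucose, 4 without replicate A of WT galactose and 6 without replicate B of WT galactose. The members' median in WT was -0.31 without replicate A and -0.32 without replicate B of WT glucose, while the calls over all genes were 822 higher and 939 lower, and 755 higher and 793 lower, against 1532 higher and 1288 lower with all libraries. It was -0.12 without replicate A of WT galactose and -0.43 without its replicate B. For brr6-1, 3 passed without replicate A of brr6-1 glucose, 2 without its replicate B, 0 without replicate A of brr6-1 galactose and 1 without its replicate B (ERG5).

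The steps that feed squalene into the late pathway were read from a list of 10 mevalonate and early genes. In glucose 19.5% of all tested genes and 39.3% of the abundant genes were called lower in brr6-1. Of the 10 listed genes 5 were lower there and 0 higher. These were ERG10 (acetyl-CoA thiolase, log2 fold change -1.06 ± 0.18), ERG20 (farnesyl diphosphate synthase, -0.88 ± 0.19), IDI1 (isopentenyl diphosphate isomerase, -0.85 ± 0.16), ERG8 (phosphomevalonate kinase, -0.57 ± 0.15) and ERG13 (HMG-CoA synthase, -0.38 ± 0.12). MVD1 (-0.42 ± 0.16, adjusted p = 0.0635) and ERG12 (-0.38 ± 0.17, adjusted p = 0.105) did not pass. In galactose 1 of the 10 was lower, ERG13 (-0.38 ± 0.12, adjusted p = 0.0465), and 0 were higher. Over all tested genes 14.3% were called lower and 8.29% higher in galactose. The list's medians were -0.40 in glucose and -0.33 in galactose. Under library totals 3 of these 10 were lower and 1 higher in glucose, and under cyclic loess 2 were lower. In glucose 2 passed without replicate A of brr6-1 glucose, without replicate A of WT glucose or without replicate B of WT glucose, and 8 passed (7 lower, 1 higher) without replicate B of brr6-1 glucose.

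The other late genes and the partners of the late enzymes form a list of 7. In galactose, where 14.3% of all tested genes were called lower, 4 of the 7 were lower in brr6-1 and 0 higher. These were ERG4 (the last reductase of the pathway, -0.86 ± 0.16), ERG2 (sterol isomerase, -0.85 ± 0.23), DAP1 (a heme protein that supports Erg11, -0.74 ± 0.20) and NCP1 (the reductase that passes electrons to Erg11, -0.58 ± 0.15). ERG28, a scaffold of the demethylation enzymes, was at -0.80 ± 0.32 and did not pass (adjusted p = 0.0931). In glucose 1 of the 7 was lower, ERG4 (-0.48 ± 0.15, adjusted p = 0.0354), and 0 were higher. Over all tested genes 19.5% were called lower and 16.7% higher in glucose. ERG2 (-0.53 ± 0.23, adjusted p = 0.0982) and CYB5 (-0.47 ± 0.34, adjusted p = 0.29) did not pass, and NCP1 was at -0.04 ± 0.16. All 7 were negative in glucose, with a median of -0.43. In galactose 5 were negative and 2 positive, with a median of -0.74. In edgeR's test of the difference between media 0 of the 7 passed. The galactose count was 1 under library totals, without replicate A of brr6-1 galactose and without replicate B of WT galactose, and 2 without replicate B of brr6-1 galactose. Between media, ERG4 fell in galactose in brr6-1 (-0.75 ± 0.16) while CYB5 (cytochrome b5, 1.47 ± 0.34) and ERG29 (0.81 ± 0.20) rose, and in WT NCP1 rose (0.48 ± 0.16).

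Of 12 genes of sterol esterification, transport and acetylation, 3 were higher and 1 lower in brr6-1 in glucose, and 1 was higher and 3 lower in galactose. Over all tested genes 16.7% were called higher and 19.5% lower in glucose, and 8.29% and 14.3% in galactose. The sterol acyltransferases ARE1 and ARE2 moved apart in both media. ARE2 fell by 0.96 ± 0.16 in galactose and by 0.82 ± 0.16 in glucose, and ARE1 rose by 0.66 ± 0.15 in galactose and by 0.87 ± 0.15 in glucose. In glucose the sterol uptake transporters PDR11 (1.24 ± 0.29) and AUS1 (0.63 ± 0.15) were also higher, and in galactose NCR1 (-0.54 ± 0.17) and KES1 (-0.44 ± 0.13) were lower. ARE1 lies on chromosome III, and whether other genes of that chromosome rose with it was not tested. Without chromosome III genes, 950 tested genes were called higher and 1147 lower in glucose, against 1050 and 1230 with them. In galactose these were 400 and 814, against 522 and 901. Leaving out that chromosome also removes ARE1 itself. The counts over the sterol ester and transport list were then 2 higher and 1 lower in glucose and 0 higher and 2 lower in galactose. The fall of the higher count in each medium follows from that removal and says nothing more about ARE1. In glucose 1 of these genes was higher and 0 lower without replicate A of WT glucose, and 0 higher and 1 lower without replicate B of WT glucose. Between media, 0 rose and 4 fell in galactose in brr6-1, led by ATF2 (-1.04 ± 0.21) and AUS1 (-0.98 ± 0.15). In WT 2 rose and 5 fell, led by ATF2 (-1.28 ± 0.21) and PDR11 (0.96 ± 0.28). The shares over all tested genes were 8.75% higher and 7.26% lower in brr6-1, and 24.3% and 20.5% in WT.

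Of 10 regulators of sterol genes, 3 were higher and 2 lower in brr6-1 in glucose. Over all tested genes 16.7% were called higher and 19.5% lower there. UPC2 had 183 and 288 CPM in brr6-1 glucose and 167 and 179 CPM in WT glucose, with no overlap but a wide mutant spread, and did not pass (0.45 ± 0.21, adjusted p = 0.122). ECM22 was higher (0.60 ± 0.21, adjusted p = 0.0426), as were ROX1, a repressor of hypoxic genes (1.29 ± 0.31), and SPT23, an activator of fatty acid desaturation (0.59 ± 0.15). ROX1 was near the floor, with 73 and 60 counts in brr6-1 glucose and 28 and 27 in WT glucose. HAP1, a heme-responsive activator, was lower (-0.61 ± 0.14), as was NSG1, which is related to the INSIG proteins of animals (-0.78 ± 0.12). The higher calls were lost, 0 of 10 passing in that direction, without replicate A of brr6-1 glucose, without replicate A of WT glucose and without replicate B of WT glucose.

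In galactose, where 14.3% of all tested genes were called lower and 8.29% higher, 1 of the 10 regulators was lower and 0 were higher. That one was HAP1, with 126 and 138 CPM in brr6-1 galactose and 429.5 and 534 CPM in WT galactose (-1.86 ± 0.15, adjusted p = 4.15e-05). UPC2 had 91.8 and 131 CPM in brr6-1 galactose and 111 and 123 CPM in WT galactose, which overlap (-0.07 ± 0.21, adjusted p = 0.831), and ECM22 was at -0.03 ± 0.21 (adjusted p = 0.937). Between media UPC2 fell by 1.08 ± 0.22 in galactose in brr6-1 (adjusted p = 0.00671) and stood at -0.57 ± 0.21 in WT (adjusted p = 0.0537). ECM22 fell by 0.77 ± 0.21 in brr6-1 (adjusted p = 0.0287) and stood at -0.14 ± 0.21 in WT (adjusted p = 0.597). Counts over this list were 1 higher and 4 lower in brr6-1, and 5 higher and 1 lower in WT. The shares over all tested genes were 8.75% higher and 7.26% lower in brr6-1, and 24.3% and 20.5% in WT. In WT ROX1 (1.28 ± 0.30), MGA2 (1.06 ± 0.21), SPT23 (0.96 ± 0.15) and MOT3 (0.93 ± 0.21) rose and NSG1 fell (-1.40 ± 0.12).

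Heme is the cofactor of Erg11 and Erg5. Of 8 heme synthesis genes, 1 was higher and 3 were lower in brr6-1 in glucose, HEM13 (0.77 ± 0.19) against HEM3 (-0.97 ± 0.12), HEM2 (-0.63 ± 0.12) and HEM12 (-0.44 ± 0.12). In galactose 1 was lower, HEM1 (-0.50 ± 0.16, adjusted p = 0.0434), and 0 were higher. Over all tested genes 16.7% were called higher and 19.5% lower in glucose, and 8.29% and 14.3% in galactose. Between media, HEM2 (0.46 ± 0.12) and HEM12 (0.43 ± 0.12) rose and HEM14 (-0.96 ± 0.11) and HEM13 (-0.84 ± 0.19) fell in brr6-1. In WT HEM14 (-0.49 ± 0.11) and HEM3 (-0.43 ± 0.12) fell. The shares over all tested genes were 8.75% higher and 7.26% lower in brr6-1, and 24.3% and 20.5% in WT. Under library totals 2 of the 8 were higher and 1 lower in brr6-1 in glucose.

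Markers of the other mating type were read beside these results. A list of 7 a-cell genes summed to 91.3 and 93.7 CPM in brr6-1 galactose and 90.9 and 80.8 in WT galactose, and to 91.0 and 87.3 CPM in brr6-1 glucose and 59.2 and 61.6 in WT glucose. STE6 made most of each sum, with 51.3 to 77.3 CPM per library. In WT glucose MFA2 was at 0 counts in both libraries and AGA2 in 1. In glucose, where 16.7% of all tested genes were called higher, 3 of the 7 were higher in brr6-1 (ASG7, BAR1 and STE6) and 0 were lower. In galactose 0 of the 7 passed in either direction by edgeR, with 3 under 0.05 before adjustment. Their part, and that of the higher shares of alignments that were not unique and of reads outside genes in brr6-1 glucose, in the results above was not tested.

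Across the 4 groups the members did not share 1 profile. Profiles are log2 CPM group means centred on each gene's own mean, and distances are root mean square differences over the 4 groups. ERG11 and ERG24 were nearest to each other (0.109), then ERG1 and ERG24 (0.119) and ERG1 and ERG11 (0.139), all highest in WT glucose and lowest in brr6-1 galactose. ERG1 and ERG5 were farthest apart (0.743), ERG5 being highest in WT galactose and lowest in brr6-1 glucose. The members' median profile was -0.15 in brr6-1 galactose and 0.15 in WT galactose, and -0.22 in brr6-1 glucose and 0.31 in WT glucose. ERG26 lay nearest to it (0.0833), with 99 tested genes outside the lists nearer, and ERG5 farthest (0.462), with 4020 nearer. The 5 nearest genes outside the lists were UBP6 (0.0287), AIP1 (0.0296), MPD1 (0.0308), TAF3 (0.0333) and FIS1 (0.0334). With 4 groups many genes lie near any one profile.

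The chromatin immunoprecipitation (ChIP) table of the same series lists 22 peaks from W303 cells that expressed FLAG-tagged Brr6 fragments from a galactose promoter, and none of the 10 members is among the genes listed at a peak. The nearest peak to a member is on chromosome XII at 257460 to 258920, which the table assigns to MNL2 and SHM2, 2502 bp from ERG3. Its signal over that of total extract was 2.74 and 2.64 for Brr6N, 1.01 and 1.06 for Brr6deltaC4N, which lacks the putative zinc finger, and 1.03 and 1.04 for the empty vector. It ranked 4 of 22 by the mean Brr6N ratio. The next nearest member is ERG6, at 67459 bp from a peak. Strain and culture differ from those of the RNA libraries, and a peak table shows nothing about sites below its threshold.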

How the data were processed

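Libraries came from rRNA-depleted total RNA with a strand-marking kit and gave single-end reads, per the labels' protocols. Each deposited RNA file lists the raw counts of 1 library by gene, which the authors made with cutadapt, TopHat and HTSeq on R64 per the submitters' processing notes. The sources used here do not give how HTSeq treated strand, nor versions. The 5 HTSeq total lines were left out. The deposited ChIP table holds the authors' mean signal per peak in 9 libraries, which was divided here by the signal of the same construct's total extract; reads were aligned with Bowtie 1.1.2 per the submitters' processing notes. Its other 15 columns of values were not used.

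Of 6572 features, 5898 matched the R64 gene table; 97.05% of matched lengths are multiples of 3, so they are coding lengths. Genes passing edgeR's filterByExpr (minimum count 10) were TMM-scaled, and 1 quasi-likelihood model (edgeR) was fitted over all 8 libraries and 4 groups (4 residual degrees of freedom), with Benjamini-Hochberg adjustment within each of 5 comparisons. The standard error is the size of the log2 fold change divided by the root of the F statistic. The fit was tested on simulated counts in which few genes changed and the libraries had no scaling differences beyond their totals. That test does not bear on how the calls depend on scaling. Alternatives were DESeq2 size factors, library totals, cyclic loess in limma-voom, other filters, a robust fit, DESeq2's Wald test, the replicate letter as a block, a fit of the 4 libraries compared alone, removal of chromosome III genes, and each library left out in turn. Tools were R 4.3.3, edgeR 4.0.16, limma 3.58.1, DESeq2 1.42.0 for tests, and matplotlib 3.10.9 and pandas 2.3.3 on Python 3.11.15 for figures.

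The members, gene lists, tests and alternatives were chosen with earlier results of these data known. Named genes are the members, BRR6, LEU2, HIS3, GAL1, UPC2, ECM22 and the 5 nearest profiles. Up to 4 passing and 2 other genes per list were also named, by size of change. MFA2, AGA2 and APC9 were named after their values were seen. The same holds for the mevalonate gene ERG13 in glucose and for ERG4 and ERG2 between media in WT. Promoter and protein sequences were not analysed here.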

Additional observations from a re-analysis of the deposited data

Results flagged for a closer look

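Among the genes named here, 2 had a brr6-1 effect that differed between galactose and glucose by edgeR's quasi-likelihood test of the difference itself. Over all tested genes 5.59% were called for that difference, so a count of 2 is not read as a result about the lists. HAP1 was lower in brr6-1 in both media, with log2 fold changes of -1.86 ± 0.15 in galactose and -0.61 ± 0.14 in glucose, a difference of -1.25 ± 0.20 (adjusted p = 0.00919). It had 126 and 138 CPM in brr6-1 galactose and 429.5 and 534 CPM in WT galactose, and 201 and 230.3 CPM in brr6-1 glucose and 329 and 329 CPM in WT glucose. The HAP1 difference kept its sign under every alternative run and lost its call without replicate A of WT glucose (adjusted p = 0.089) and without replicate B of WT glucose (adjusted p = 0.0999).

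BRR6 is the gene altered in the mutant strain. It was higher in brr6-1 in both media, with log2 fold changes of 3.14 ± 0.17 in galactose and 1.81 ± 0.16 in glucose, a difference of 1.34 ± 0.22 (adjusted p = 0.0111). The BRR6 difference lost its call without replicate A of WT glucose (adjusted p = 0.0733), without replicate B of WT glucose (adjusted p = 0.0946) and without replicate A of brr6-1 galactose (adjusted p = 0.0613).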

How the results depend on the processing

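Counts of late ergosterol genes called in brr6-1 against WT were 7 in glucose, with 0 under library totals alone and 1 under cyclic loess, and 4 in galactose, with 2 under library totals. Between media they were 2 in brr6-1, with 1 under library totals and 1 under cyclic loess, and 7 in WT, with 4 under each of these. For the difference between media the count was 0, with 1 (ERG7) where genes needed 100 counts in each of 2 libraries and 1 by DESeq2's Wald test. Under library totals 18.4% of all calls for that difference were higher, against 29.5%. Leaving out 1 library gave 0 to 8 in glucose, 1 to 6 in galactose, 0 to 3 between media in brr6-1, 1 to 6 in WT and 0 to 1 for the difference; the group left with 1 library is then assumed to vary like the others. Of the calls for named genes, ERG1 between media in WT was the one whose sign turned, at 0.049 under cyclic loess; values that had not passed, such as ERG25 and ERG5 in glucose, also changed sign under other scalings. Apart from scaling, why counts moved was not tested.

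The labels do not tie replicate letters to a shared batch or day, and libraries were not treated as pairs. The correlation across genes of A minus B between groups ran from -0.04 to 0.13 in 5 of the 6 pairs of groups and was 0.38 between brr6-1 glucose and WT galactose. With the letter as a replicate block, 8 members were called in glucose (ERG6 added, adjusted p = 0.0493), 4 in galactose, 2 and 7 between media in brr6-1 and WT, and 0 for the difference. The effect of read depth was not tested.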
